A study of Mus musculus with 10 samples.

Results

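The genes described here encode proteins that hold the 2 sides of a synapse together: the neuroligins Nlgn1, Nlgn2 and Nlgn3, the neurexins Nrxn2 and Nrxn3, the latrophilins Lphn1, Lphn2 and Lphn3, and C1ql1, a secreted C1q-like protein. They were chosen by gene name with the difference between vigabatrin and vehicle in these libraries already known, and Lphn3, C1ql1 and Nlgn1 were among the genes of smallest p in that contrast. Their differences between the groups are therefore given as a description. All 9 were found among the 35275 genes of the deposited count table, and all 9 passed the filter on low counts, as did 17435 genes in all.

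Retinal RNA of C57BL/6 mice aged 10 to 12 weeks was sequenced. In 5 libraries the mice had received vigabatrin, an antiepileptic drug that irreversibly inhibits the GABA-degrading enzyme GABA transaminase, at 140 mg/kg/day for 11 days from a subcutaneous osmotic pump. The other 5 libraries carry the treatment label vehicle, although their titles call them untreated. Each library is named here by its group and its title number, and no label says what that number stands for or whether each library is a separate animal, so the spread between libraries may in part be technical. The libraries held 36056135 to 54052502 counts, and the 9 genes had 590 to 18929 counts in a library. Levels are CPM, counts scaled to a fixed total, with the library size scaled by the trimmed mean of M-values (TMM), and tests are edgeR's quasi-likelihood test with Benjamini-Hochberg adjustment over all 17435 genes, where a gene is called at an adjusted p under 0.05.

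Neurexins are presynaptic receptors made from separate promoters as long alpha and short beta forms, and neuroligins are their postsynaptic partners. Neuroligin 1 is best known from glutamatergic synapses, neuroligin 2 from GABAergic and glycinergic synapses, those of the retina among them, and neuroligin 3 from both kinds. Latrophilins are adhesion G protein-coupled receptors, the family that binds the spider toxin alpha-latrotoxin, and they bind teneurins and FLRT proteins across the synaptic cleft. C1q-like proteins bind the adhesion receptor encoded by Bai3, and C1ql1 is known from the climbing fibre synapses of the cerebellum. Marker genes of retina were abundant, with 6 rod genes summing to 49000 to 53600 CPM in vigabatrin and 49500 to 54600 CPM in vehicle libraries, and no marker of rods, cones, bipolar, amacrine, horizontal, ganglion or Müller cells was at 0 throughout. Lens markers took over 1% of the counts in 4 libraries (vigabatrin 2344 and 2429, vehicle 835 and 1582) and at most 0.0907% in the others, so the fold changes, the partner count and the spread between libraries are also given without these 4. The retina was sequenced whole, so more cells of a type and more RNA per cell cannot be told apart.

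The 9 genes differed widely in abundance. Per kilobase of the deposited gene length, C1ql1 and Nlgn2 were the most abundant, at 68.5 and 61.3 CPM per kb on average over the 10 libraries, followed by Nrxn2 at 40.5, Lphn1 at 33.6, Nrxn3 at 26.7, Lphn2 at 13.5, Lphn3 at 5.48, Nlgn1 at 4.08 and Nlgn3 at 2.47 CPM per kb. C1ql1 thus stood 27.7-fold above Nlgn3, and on this scale C1ql1 exceeded 96.0% of the tested genes and Nlgn3 exceeded 34.4%. Of the 8 pairs of neighbours in this order, 6 had ranges over the 10 libraries that did not overlap. In an exact two-sided sign-flip permutation test of the log2 difference within libraries, 7 pairs gave an adjusted p of 0.00223 over the 8 pairs (n = 10, raw p 0.00195, the smallest this test allows). The order was set in these same libraries and the lengths are taken as given, so these p-values are not evidence for the order itself. C1ql1 and Nlgn2 were the closest pair: C1ql1 was higher in 9 of 10 libraries by 0.15 ± 0.13 on the log2 scale (SD, n = 10; exact permutation test, adjusted p = 0.00781), their ranges of 59.6 to 80.7 and 57.1 to 66.0 CPM per kb overlapped, and in the 5 vehicle libraries alone the difference was 0.05 ± 0.09 with C1ql1 higher in 4 of 5 (exact permutation test, p = 0.25). Nrxn2 and Lphn1 also overlapped in range, with a lowest Nrxn2 value of 34.9 and a highest Lphn1 value of 36.2 CPM per kb.

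The order rests on the length assigned to each gene. Dividing by the exon bases of GENCODE M21, a choice made after seeing the data, kept C1ql1 (68.5 CPM per kb), Nlgn2 (59.0), Nrxn3 (16.8) and Lphn2 (5.74) in their places and put Lphn1 (32) before Nrxn2 (19.6) and Nlgn3 (2.28) before Lphn3 (2.10) and Nlgn1 (1.32). The annotated exons of Nlgn1 span 13422 bases there against 4359 bases in the deposited table, and those of Lphn3 17750 against 6793 bases, whereas C1ql1 has 1473 bases in both. With GENCODE M21 lengths Lphn1 exceeded Nrxn2 in 10 of 10 libraries (exact permutation test, adjusted p = 0.0026). By deposited length Nrxn2 exceeded Lphn1 in 10 of 10 (same test, adjusted p = 0.00223), so opposite orders both gave small p-values. With either length, Nlgn2 was the most abundant of these 3 neuroligins and Lphn1 of the 3 latrophilins. By deposited length Nlgn2 made up 89.8% ± 0.355 of the 3 neuroligins in vigabatrin and 90.9% ± 0.448 in vehicle libraries (SD, n = 5 each). Lphn1 made up 63.5% ± 0.922 of the 3 latrophilins in vigabatrin and 64.4% ± 1.72 in vehicle libraries (SD, n = 5 each). With GENCODE M21 lengths these shares were 93.9% in vigabatrin and 94.6% in vehicle libraries for Nlgn2, and 80.1% in vigabatrin and 80.6% in vehicle libraries for Lphn1.

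**Figure D1:**
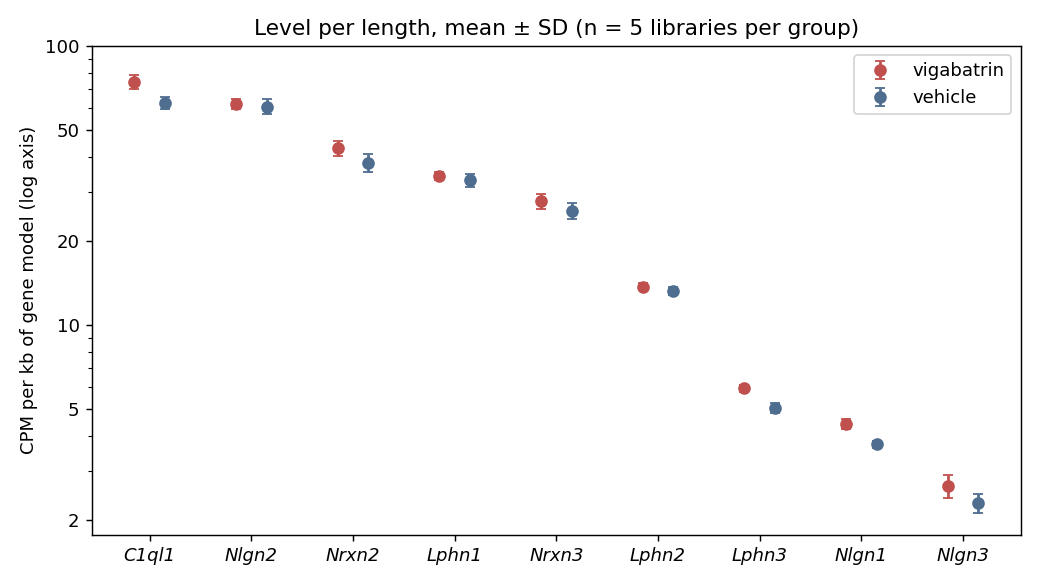
Level of the 9 genes in CPM per kb of the deposited gene length (log axis), as mean ± SD of 5 vigabatrin (red, left) and 5 vehicle libraries (blue, right). The genes run from C1ql1 at 74.3 CPM per kb in vigabatrin and 62.6 in vehicle libraries down to Nlgn3 at 2.65 and 2.30.

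The promoter sequences of Nlgn1 and Lphn3, whose vigabatrin and vehicle libraries did not overlap in the results that follow, are shown with those of Nlgn2 and Lphn1, their abundant relatives with little difference between groups. They are the bases just before the most upstream RefSeq start with at most 10 exon bases of GENCODE M21 in the window, which were removed, on GRCm38.p6 (mm10), read 5′ to 3′ on the gene's strand. Capitals mark GC boxes, GGGCGG on either strand, which reads CCGCCC on the other; TATAAA and TGACGTCA were searched likewise, and these 3 motifs do not overlap in the sequences. For Nlgn1 the window is chr3:26153987-26154236 (minus strand), for Lphn3 chr5:81021346-81021592 (plus), for Nlgn2 chr11:69837785-69838034 (minus) and for Lphn1 chr8:83899848-83900097 (plus). By the deposited positions the counted Nlgn1 gene reaches only to 26133734, so its window lies apart from it. The Lphn3 gene begins at 81020138, so its window lies inside it. Those of Nlgn2 and Lphn1 lie just before the counted genes, so the windows are not at like places.
Nlgn1: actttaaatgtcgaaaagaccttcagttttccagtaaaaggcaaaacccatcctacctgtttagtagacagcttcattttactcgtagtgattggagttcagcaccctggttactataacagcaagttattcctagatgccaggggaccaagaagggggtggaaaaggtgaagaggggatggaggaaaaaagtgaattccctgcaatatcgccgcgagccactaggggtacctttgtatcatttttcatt
Lphn3: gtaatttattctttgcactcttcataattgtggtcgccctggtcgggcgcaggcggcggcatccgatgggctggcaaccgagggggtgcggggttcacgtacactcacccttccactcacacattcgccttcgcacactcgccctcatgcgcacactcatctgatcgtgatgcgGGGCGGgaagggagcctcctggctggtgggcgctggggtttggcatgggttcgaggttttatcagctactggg
Nlgn2: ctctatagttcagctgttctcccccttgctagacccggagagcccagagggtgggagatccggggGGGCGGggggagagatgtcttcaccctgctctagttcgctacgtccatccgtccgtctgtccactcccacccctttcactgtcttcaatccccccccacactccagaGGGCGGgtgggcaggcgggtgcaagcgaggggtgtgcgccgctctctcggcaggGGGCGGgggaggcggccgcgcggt
Lphn1: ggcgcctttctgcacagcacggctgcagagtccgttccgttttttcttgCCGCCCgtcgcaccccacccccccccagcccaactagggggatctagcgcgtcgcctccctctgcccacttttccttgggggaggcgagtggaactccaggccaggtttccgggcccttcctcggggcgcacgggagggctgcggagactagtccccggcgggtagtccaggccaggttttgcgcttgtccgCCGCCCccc

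The Nlgn1 window held no GC box, 5 CpG dinucleotides and 43.6% G and C, whereas the Lphn3 window held 1 GC box and 18 CpG, the Nlgn2 window 3 and 18, and the Lphn1 window 2 and 21. The window of Nrxn3, whose groups overlapped, is not printed. It runs from 88794254 to 88794503, inside a counted gene that begins at 88722876. Its last bases are a pyrimidine-rich stretch and CAG, as at the end of an intron, so it may not be a promoter. It held no GC box, 2 CpG and 45.6% G and C, which are not to be set against the windows of the other genes. Of 32851 windows of 250 bases before RefSeq starts, 32.7% hold a GC box, 12.4% TATAAA and 1.55% TGACGTCA, and the median number of CpG is 6. Neither TATAAA nor TGACGTCA occurs in the 4 printed windows or in that of Nrxn3. Of the 9 genes, 6 matched the RefSeq promoter table and 5 had such a window. C1ql1, whose groups also did not overlap, was not matched.

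The fitted difference was positive in all 9 genes, although that of Nlgn2 turned to -0.087 with a term for the number range of the titles. It was between 0.23 and 0.25 on the log2 scale in C1ql1, Nlgn1 and Lphn3 and at most 0.06 in Nlgn2, Lphn1 and Lphn2. Across all tested genes 49.4% had a log2 fold change above 0. None of the 9 genes was called over all genes (0 of 9, background 0.00574%, with adjusted p between 0.2 for Lphn3 and 0.918 for Nlgn2 in edgeR's quasi-likelihood test). The background is the polysialyltransferase gene St8sia2, the only gene called by this test, with 0 genes lower where DESeq2's Wald test had 37 genes higher and 49 lower. At an unadjusted p under 0.05, 5 of the 9 were higher, where the background was 3.68% higher and 3.69% lower. In 3 of the 9 the lowest vigabatrin library exceeded the highest vehicle library, and in 0 the reverse held, against 0.849% and 0.631% of all tested genes. These shares describe genes that were chosen on this same contrast. The median log2 fold change was 0.167 over the 9 genes and -0.001 over all tested genes.

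**Figure D2:**
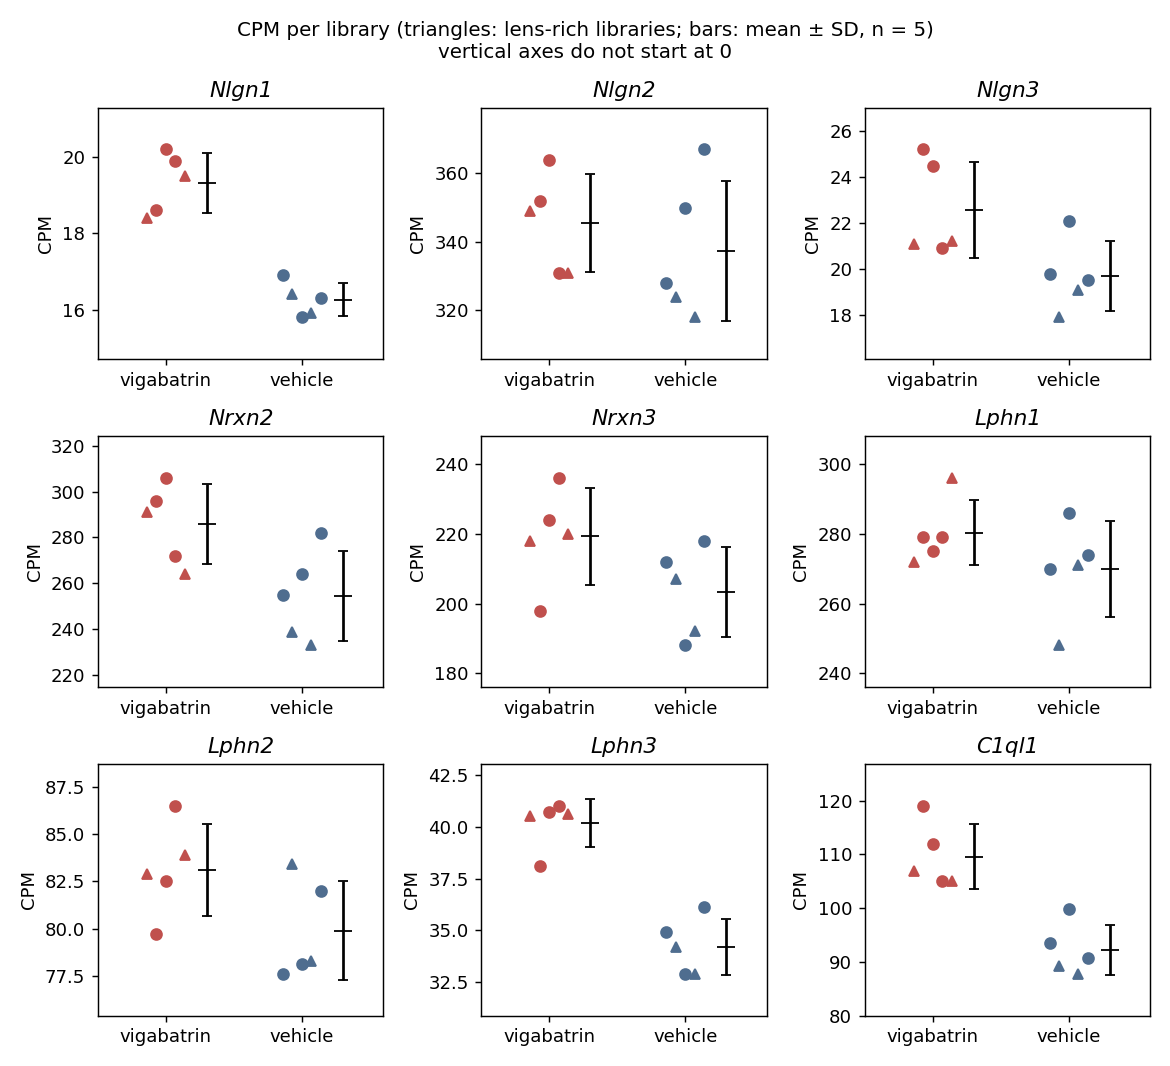
CPM of the 9 genes in each of 5 vigabatrin (red, left) and 5 vehicle libraries (blue, right), with mean ± SD beside the points, triangles for the 4 lens-rich libraries, and vertical axes that do not start at 0. The groups are separate in Nlgn1, Lphn3 and C1ql1 and overlap in the other 6 genes.

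Among the neuroligins, Nlgn1 (ENSMUSG00000063887, chromosome 3 from 25431811 to 26133734 of mm10, minus strand) had 18.4, 18.6, 20.2, 19.9 and 19.5 CPM in vigabatrin 2344, 2347, 2349, 2428 and 2429, against 16.9, 16.4, 15.8, 15.9 and 16.3 CPM in vehicle 832, 835, 1580, 1582 and 2345. The groups did not overlap, and the lowest vigabatrin library lay above the highest vehicle library. The mean was 19.3 ± 0.795 CPM in vigabatrin and 16.2 ± 0.434 CPM in vehicle libraries (SD, n = 5 each), a log2 fold change of 0.25 with a standard error of 0.05, or 1.19-fold. Nlgn2 (ENSMUSG00000051790, chromosome 11 from 69823122 to 69837784, minus strand) had 349, 352, 364, 331 and 331 CPM in the vigabatrin libraries in the same order, against 328, 324, 350, 318 and 367 CPM in the vehicle libraries. Its groups overlapped, its highest value was in vehicle 2345, and its log2 fold change was 0.04 ± 0.05 (SE). Nlgn3 (ENSMUSG00000031302, chromosome X from 101299168 to 101325963, plus strand) had 21.1, 25.2, 24.5, 20.9 and 21.2 CPM in the vigabatrin libraries, against 19.8, 17.9, 22.1, 19.1 and 19.5 CPM in the vehicle libraries. All 5 vigabatrin libraries were above the vehicle median, but vehicle 1580 lay above 3 of them, and the log2 fold change was 0.20 ± 0.08 (SE). Nlgn1 made up 6.42% ± 0.368 of the 3 neuroligins per length in vigabatrin and 5.61% ± 0.362 in vehicle libraries (SD, n = 5 each), with ranges of 6.07% to 6.88% and 5.19% to 5.96% that did not overlap. Most of that sum is Nlgn2. With the exon lengths of GENCODE M21 the share of Nlgn1 was 2.27% ± 0.135 in vigabatrin and 1.97% ± 0.132 in vehicle libraries (SD, n = 5 each). Those ranges were separate too, but another length rescales a gene alike in every library, so this is no separate check. The share restates a difference in a gene chosen on this contrast.

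The neurexins both had higher means and overlapping groups. Nrxn2 (ENSMUSG00000033768, chromosome 19 from 6418731 to 6544169, plus strand) had 291, 296, 306, 272 and 264 CPM in the vigabatrin libraries, against 255, 239, 264, 233 and 282 CPM in the vehicle libraries. Vehicle 2345 lay above 2 of the vigabatrin libraries, and the log2 fold change was 0.17 ± 0.06 (SE). Nrxn3 (ENSMUSG00000066392, chromosome 12 from 88722876 to 90334935, plus strand) had 218, 198, 224, 236 and 220 CPM in the vigabatrin libraries, against 212, 207, 188, 192 and 218 CPM in the vehicle libraries. Vigabatrin 2347 lay among the vehicle libraries, and the log2 fold change was 0.11 ± 0.06 (SE). Counts are per gene, so alpha and beta transcripts are summed. Nrxn2 made up 60.8% ± 2.47 of both per length in vigabatrin and 59.8% ± 1.83 in vehicle libraries (SD, n = 5 each), and these ranges overlapped.

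Among the latrophilins, Lphn3 (now named Adgrl3, ENSMUSG00000037605, chromosome 5 from 81020138 to 81825133, plus strand) had 40.5, 38.1, 40.7, 41.0 and 40.6 CPM in the vigabatrin libraries, against 34.9, 34.2, 32.9, 32.9 and 36.1 CPM in the vehicle libraries. The groups did not overlap, with vigabatrin 2347 the lowest of its group and vehicle 2345 the highest of its own. The mean was 40.2 ± 1.18 CPM in vigabatrin and 34.2 ± 1.37 CPM in vehicle libraries (SD, n = 5 each), a log2 fold change of 0.23 with a standard error of 0.04, or 1.18-fold. Lphn1 (Adgrl1, ENSMUSG00000013033, chromosome 8 from 83900105 to 83941954, plus strand) had 272, 279, 275, 279 and 296 CPM in the vigabatrin libraries, against 270, 248, 286, 271 and 274 CPM in the vehicle libraries. Its groups overlapped, since vehicle 1580 exceeded 4 of the vigabatrin libraries, and its log2 fold change was 0.05 ± 0.04 (SE). Lphn2 (Adgrl2, ENSMUSG00000028184, chromosome 3 from 148815586 to 148989316, minus strand) had 82.9, 79.7, 82.5, 86.5 and 83.9 CPM in the vigabatrin libraries, against 77.6, 83.4, 78.1, 78.3 and 82.0 CPM in the vehicle libraries. Its groups overlapped as well, with a log2 fold change of 0.06 and a standard error of 0.03. Lphn3 made up 11.0% ± 0.311 of the 3 latrophilins per length in vigabatrin and 9.84% ± 0.460 in vehicle libraries (SD, n = 5 each), and all 5 vigabatrin libraries were above all 5 vehicle libraries. With GENCODE M21 lengths its share was 5.56% ± 0.191 in vigabatrin and 4.95% ± 0.283 in vehicle libraries (SD, n = 5 each). Those ranges were separate too, which is no separate check for the reason given for Nlgn1.

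C1ql1 (ENSMUSG00000045532, chromosome 11 from 102939264 to 102946688, minus strand) had 107, 119, 112, 105 and 105 CPM in the vigabatrin libraries, against 93.5, 89.3, 99.8, 87.8 and 90.7 CPM in the vehicle libraries. The groups did not overlap, with vigabatrin 2347 the highest library and vehicle 1582 the lowest. The mean was 109 ± 6.04 CPM in vigabatrin and 92.2 ± 4.71 CPM in vehicle libraries (SD, n = 5 each), a log2 fold change of 0.25 with a standard error of 0.05, or 1.19-fold.

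When each library was left out in turn, the differences of the 3 genes with separate groups changed little, while the smaller differences moved more in proportion. Genes of small p and separate groups tend to keep their difference without any 1 library. This follows in part from the choice of genes and is not separate evidence. The log2 fold change stayed between 0.233 and 0.269 for Nlgn1, 0.216 and 0.252 for Lphn3 and 0.217 and 0.276 for C1ql1. When vehicle 2345 was left out, edgeR's test called 13 genes as higher and 26 as lower, Lphn3 being 1 of the 13 (adjusted p = 0.0414). DESeq2's Wald test called Lphn3 (adjusted p = 0.000448), Nlgn1 (0.00255) and C1ql1 (0.00378), and over all alternatives the adjusted p of these 3 reached 1. Over all 15771 genes with an adjusted p, DESeq2's test called 37 higher and 49 lower. It used the same counts, and the genes were chosen with this contrast known, so its calls are not separate evidence. Without the 4 lens-rich libraries the log2 fold changes were 0.265 for Nlgn1, 0.208 for Lphn3, 0.241 for C1ql1, 0.202 for Nlgn3, 0.127 for Nrxn2, 0.089 for Nrxn3, 0.067 for Lphn2, 0.004 for Lphn1 and 0.005 for Nlgn2.

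The numbers in the titles separate most vehicle libraries from the vigabatrin libraries, since vehicle 2345 alone has a number above 2000 as all vigabatrin libraries have. In vehicle 2345 Nlgn1 had 16.3, Lphn3 36.1 and C1ql1 90.7 CPM, below the lowest vigabatrin values of 18.4, 38.1 and 105 CPM. The groups of these genes do not overlap, so the same is true of every vehicle library and tells nothing of the number range. The 367 CPM of Nlgn2 in vehicle 2345 exceeded every vigabatrin library, and its 282 CPM of Nrxn2 and 218 CPM of Nrxn3 lay within the vigabatrin range. With the number range as a term, which sets vigabatrin against this 1 library, the log2 fold change was 0.247 for Nlgn1, 0.272 for C1ql1, 0.215 for Nlgn3, 0.155 for Lphn3, 0.03 for Lphn1, 0.022 for Nrxn2, 0.02 for Lphn2, 0.006 for Nrxn3 and -0.087 for Nlgn2. Apart from this library the number range follows the groups, so the effects of group and number range cannot be told apart without it.

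**Figure D3:**
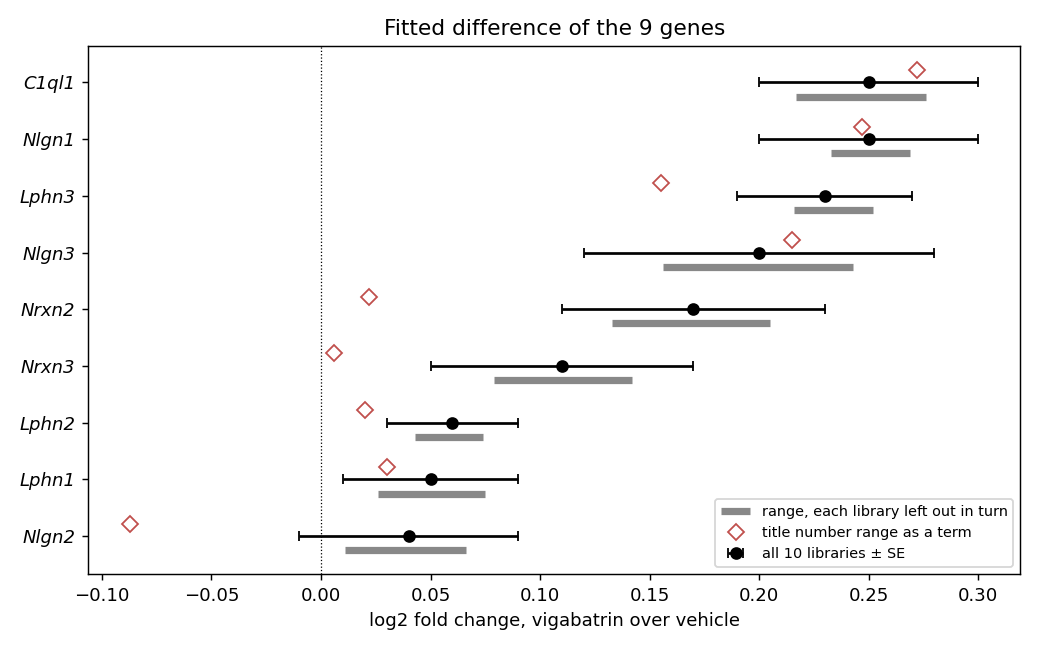
Log2 fold change of vigabatrin over vehicle for the 9 genes from all 10 libraries with its standard error (black), the range when each library is left out in turn (grey bar), and the value fitted with a term for the number range of the titles (open diamond). C1ql1, Nlgn1 and Nlgn3 have diamonds at 0.272, 0.247 and 0.215, and Nlgn2 has one at -0.087.

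Lists of markers for the neurons of the retina had median log2 fold changes between -0.071 and 0.056. The 8 ganglion cell markers had 7 higher means, a median log2 fold change of 0.045, and sums of 819 to 948 CPM in vigabatrin and 801 to 902 CPM in vehicle libraries. The 6 amacrine markers had 5 higher means, a median of 0.056, and sums of 854 to 924 CPM in vigabatrin and 802 to 879 CPM in vehicle libraries. The 5 bipolar markers had 2 higher means, a median of -0.003, and sums of 1260 to 1330 CPM in vigabatrin and 1280 to 1370 CPM in vehicle libraries. The 6 rod markers had 1 higher mean and a median of -0.071. The 5 cone markers had 1 higher mean, a median of -0.031, and sums of 981 to 1100 CPM in vigabatrin and 902 to 1210 CPM in vehicle libraries. The 4 horizontal cell markers had 1 higher mean, a median of -0.01, and sums of 71.4 to 82.4 CPM in vigabatrin and 74 to 85.3 CPM in vehicle libraries. Of the 5 Müller glia markers 4 had higher means, with a median of 0.059 and sums of 3050 to 3460 CPM in vigabatrin and 3340 to 3740 CPM in vehicle libraries. All 8 tested lens markers (Lim2 was at 0 in every library) had positive log2 fold changes, with a median of 0.294 and sums of 2.29 to 18200 CPM in vigabatrin and 30.5 to 17800 CPM in vehicle libraries. All 8 pigment epithelium markers had negative log2 fold changes, with a median of -1.71 and sums of 9.88 to 403 CPM in vigabatrin and 22.2 to 999 CPM in vehicle libraries. None of these markers was called, and with lens and pigment epithelium levels as terms Nlgn1 measured 0.238, Lphn3 0.222 and C1ql1 0.244. The part of the neuronal markers in the result was not tested.

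Small positive log2 fold changes also prevailed in 5 lists of related genes: ligands, receptors, relatives and intracellular partners of these proteins, and other adhesion genes that act across the synapse. Of the 72 genes on these partner lists, 71 passed the filter, 60 of them had positive and 11 negative log2 fold changes, and the median log2 fold change was 0.071, against 49.4% higher and a median of -0.001 over all tested genes. None was called over all genes (0 of 71 in edgeR's quasi-likelihood test, background 0.00574%). At an unadjusted p under 0.05, 15 of the 71 were higher and 1 was lower, against 3.68% higher and 3.69% lower over all tested genes. The partner lists were chosen with earlier results of these data known. Their counts and medians are therefore a description and not separate evidence. With a term for the number range of the titles, 35 of 71 had positive log2 fold changes, and the number was 52 without vehicle 1582 and 54 without the 4 lens-rich libraries. Vigabatrin and vehicle libraries overlapped in all 71 genes, where 0.849% of all tested genes were separate and higher and 0.631% separate and lower. The partners named below were picked within each list for the highest mean CPM or for the smallest p. Differences in those of smallest p follow in part from that choice.

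Among C1q-like relatives and their receptors, 8 of 9 tested genes had higher means, with a median log2 fold change of 0.134. C1ql2, the close relative of C1ql1, had 67.2 ± 4.23 CPM in vigabatrin and 56.5 ± 4.85 CPM in vehicle libraries (SD, n = 5 each), with a log2 fold change of 0.25, a standard error of 0.06 and an adjusted p of 0.453 in edgeR's test. Bai3, the receptor gene for C1q-like proteins, had 43.8 ± 2.65 CPM in vigabatrin and 38.6 ± 1.90 CPM in vehicle libraries (SD, n = 5 each; log2 fold change 0.18 ± 0.05, SE). Its relative Bai2 had a log2 fold change of 0.12 ± 0.04 (SE), and Bai1, the most abundant of the list, had 232 ± 5.68 CPM in vigabatrin and 232 ± 15.8 CPM in vehicle libraries (SD, n = 5 each).

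Of the 7 latrophilin ligands, 5 had higher means, with a median of 0.091. The leucine-rich repeat genes Flrt3, Flrt1 and Flrt2 had log2 fold changes of 0.25, 0.16 and 0.24 with standard errors of 0.08, 0.06 and 0.12, while the teneurin gene Tenm4, the most abundant ligand, had -0.01 with a standard error of 0.13. Of 16 neurexin ligands other than neuroligins, 13 had higher means, with a median of 0.062. The cerebellin gene Cbln1 had 0.21 with a standard error of 0.07. The neurexophilin gene Nxph2 had 0.43 with a standard error of 0.22, at only 1.32 CPM in vigabatrin and 0.985 CPM in vehicle libraries. The synaptic adhesion gene Lrrtm4 had 0.32 with a standard error of 0.20, and its vehicle 835 stood low at 1.99 CPM, against 4.13 to 4.49 CPM in the other vehicle libraries. The calsyntenin gene Clstn1 had 0.01 with a standard error of 0.04. It was by far the most abundant, at 1690 ± 51.4 CPM in vigabatrin and 1680 ± 78.6 CPM in vehicle libraries (SD, n = 5 each).

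Of 17 intracellular partners of neuroligins and neurexins, 14 had higher means, with a median of 0.071. The scaffold gene Shank1 had 283 ± 16.0 CPM in vigabatrin and 249 ± 25.1 CPM in vehicle libraries (SD, n = 5 each), a log2 fold change of 0.19 ± 0.07 (SE). The scaffold-associated gene Dlgap1 had 0.10 ± 0.03 and the adaptor gene Apba2 0.14 ± 0.05 (SE). Dlg4, which encodes PSD-95 and was the most abundant of the list, had -0.02 ± 0.07 (SE). Of 22 other trans-synaptic adhesion genes, 20 had higher means, with a median of 0.054. The netrin-G ligand gene Lrrc4c had 0.14 ± 0.05, its relative Lrrc4b 0.10 ± 0.04 and the abundant Cadm3, a synaptic cell adhesion gene, 0.06 ± 0.04 (SE). Ntrk3, the neurotrophin-3 receptor gene, was the partner lower at an unadjusted p under 0.05, with 7.53 ± 0.472 CPM in vigabatrin and 8.82 ± 0.586 CPM in vehicle libraries (SD, n = 5 each; log2 fold change -0.23 ± 0.07, SE).

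**Figure D4:**
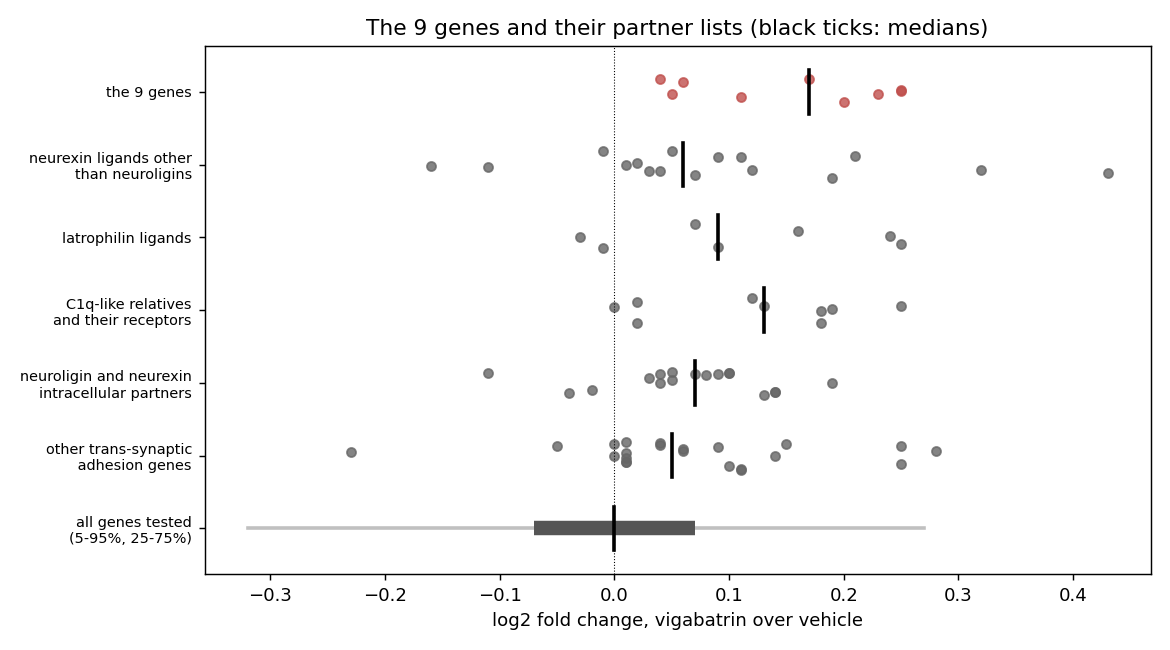
Log2 fold change of vigabatrin over vehicle for each of the 9 genes (red) and of the 71 tested genes of the partner lists (grey), with the median as a black tick and the bottom row giving the middle 50% and 90% of all tested genes. List medians lie between 0.054 and 0.134, against 0.167 for the 9 genes and -0.001 for all tested genes.

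Leaving the treatment aside, the 9 genes fell into different patterns between libraries. With group means removed from log2 CPM, Nlgn2 and Nrxn2 were nearly parallel over the 10 libraries (Pearson's r 0.961, Spearman's rho 0.988), and r was 0.924 without the 2 libraries farthest from the median of Nlgn2. Nrxn3 and Lphn3 had r 0.952 and rho 0.927, and r was 0.893 without the 2 farthest libraries of Nrxn3. Nlgn3 and C1ql1 had r 0.922 and rho 0.782, and r was 0.809 without the 2 farthest libraries of Nlgn3. Each of these 3 pairs joins genes of different families. Nlgn3 and Lphn2 had the most negative value, r -0.737 and rho -0.818. These values describe 36 pairs over 10 libraries that share depth and scaling, and no test was made. Lphn3 and C1ql1, which both separated the groups, had r -0.508 and rho -0.188, and r was 0.386 without the 2 farthest libraries of Lphn3.

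**Figure D5:**
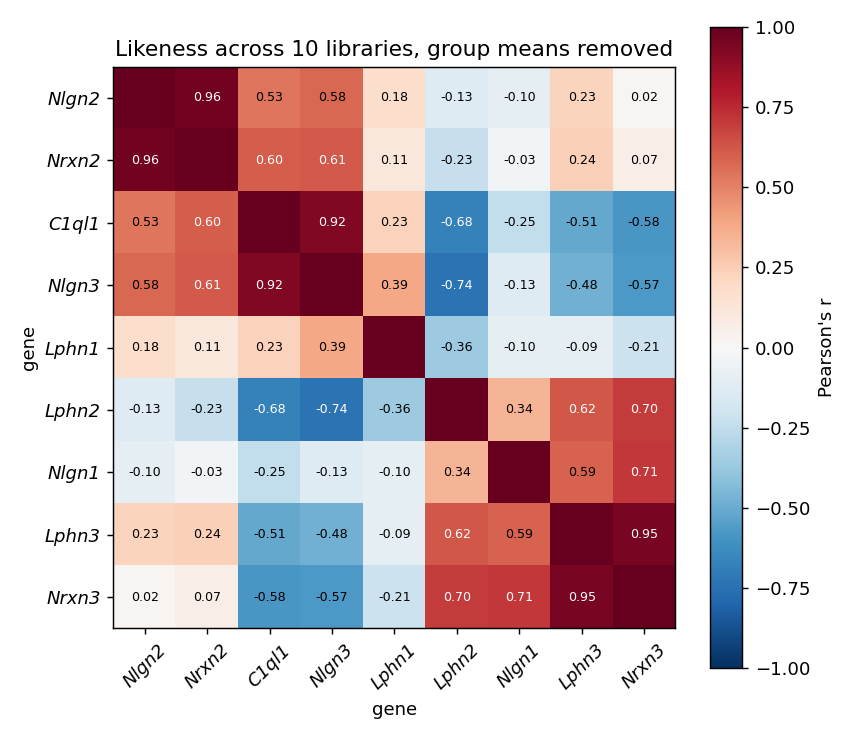
Pearson's r between each pair of the 9 genes over 10 libraries, computed on log2 CPM with group means removed (red positive, blue negative). The highest values are 0.961 for Nlgn2 with Nrxn2, 0.952 for Nrxn3 with Lphn3 and 0.922 for Nlgn3 with C1ql1.

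Outside the 9, the most similar profiles among 13153 genes of at least 1 CPM, with group means removed, were Ak5 (r 0.977) and Etnk1 (0.966) for Nlgn1, and Gtf3c4 (0.969) and Depdc5 (0.968) for Lphn3. For C1ql1 they were Ppme1 (0.927) and Tubg2 (0.919). Nlgn2 was most like Shank1 (0.949) and Sfxn5 (0.949), Nlgn3 like Cacna2d2 (0.953) and Cox19 (0.951), and Nrxn2 like Usp20 (0.959) and Ppp1r9b (0.947). For Nrxn3 the genes were Mettl13 (0.963) and Alg10b (0.955), for Lphn1 Krtcap3 (0.961) and Zfp566 (0.956), and for Lphn2 Pom121 (0.935) and Gcc1 (0.931). These are the highest of 13153 values per gene over 10 libraries, and no test was made. Shank1 is the only one of these 18 genes that is also on the partner lists.

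The spread between libraries within groups also differed among the 9. The SD of log2 CPM was 0.05 for Nlgn1, and 1.4% of the 500 genes nearest to it in level had a lower one. It was 0.045 for Lphn2 and 0.051 for Lphn3, where 6.8% and 6.4% of such genes were lower. With this share in parentheses, it was 0.063 for Lphn1 (31.6%), 0.075 for C1ql1 (46.6%), 0.074 for Nlgn2 (47.0%), 0.122 for Nlgn3 (56.2%), 0.093 for Nrxn3 (63.8%) and 0.1 for Nrxn2 (70.0%). A gene of small p in the contrast tends to have a small spread, so for Nlgn1, Lphn3 and C1ql1 these shares follow in part from the choice of genes. Without the 4 lens-rich libraries the share was 17.8% for Nlgn1, 37.8% for Lphn2, 45.6% for Lphn3, 12.2% for Lphn1, 77.0% for C1ql1, 74.0% for Nlgn2, 83.0% for Nlgn3, 92.6% for Nrxn3 and 75.4% for Nrxn2.

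Some reads could belong to overlapping genes on the other strand, because the strand setting of the counting is not given in the sources used here. In GENCODE M21 an antisense gene covers 8.91% of the exon bases of Lphn3, with 705 counts in the 10 libraries against 17277 for Lphn3, and another covers 9.16% of those of Nlgn1, with 1335 against 8275. The largest such overlap is in Lphn1, where Gm10644 covers 12.9% of the exon bases, with 713 counts against 127574. Slc22a12 covers 4.94% of those of Nrxn2, with 196 against 125026, and smaller overlaps exist in Nrxn3 (3.48%) and Lphn2 (1.42%). For Nlgn3 the strand setting does not settle the matter, since Gm21986 on the same strand shares 41.2% of its exon bases. Gm21986 had 288 counts in the 10 libraries against 9800 for Nlgn3. How reads on the shared bases were assigned is not given, which also limits the level of Nlgn3 above. C1ql1 and Nlgn2 share exon bases with no other annotated gene.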

How the data were processed

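Read counts were analysed for 10 retina libraries, 5 vigabatrin and 5 vehicle. The deposited values are raw counts per gene made with HTSeq 0.6.1 on mm10, per the submitters' processing notes. The deposited table also gives a gene length in bases; the sources used here do not give how that length was made, nor the aligner or annotation release. A further 1 column of counts that matches no sample was not used. In R 4.3.3, edgeR 4.0.16 was run with filterByExpr, TMM scaling and a model of group alone. Alternatives used DESeq2 1.42.0 and limma 3.58.1. Standard errors were derived from the log2 fold change and the root of its F statistic, and their median over genes was 0.0875. Log2 CPM for profiles used a prior count of 2. The fit was tested on simulated data first. The genes and partner lists were chosen with earlier results of these data known. Named partners were, per list, the gene of highest mean CPM and the 3 of smallest p; genes of like profile were the 2 of highest Pearson's r per gene, passing over predicted genes and pseudogenes. St8sia2 was named after its values were seen. Alternatives covered scaling, filters, tools, each library left out, the lens-rich libraries left out, the title number range, lens and pigment epithelium levels, and a loess trend on gene length (span 0.3).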

Additional observations from a re-analysis of the deposited data

Results flagged for a closer look

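Of 58 groups of 5 libraries examined for 29 genes, 4 held a library whose gap to the nearest of the others took most of the group's range, where chance gives about 2.9 (1 in 20). Vigabatrin 2429 was high for Lphn1 at 296 CPM, against 272 to 279 CPM in the other 4. For Lphn3, vigabatrin 2347 stood low at 38.1 CPM with the other 4 at 40.5 to 41.0 CPM, and still above all vehicle libraries. Vigabatrin 2429 was low for Clstn1 at 1600 CPM, against 1690 to 1730 CPM. Vehicle 835 was low for Lrrtm4 at 1.99 CPM, against 4.13 to 4.49 CPM.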

How the results depend on the processing

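The log2 fold changes of the 9 genes kept their sign under all 22 alternatives, apart from Nlgn2, which measured -0.087 when the number range of the titles was a term. The count of genes called higher, 1 with all libraries, was 0 with library sizes alone, with no filter, without the 4 lens-rich libraries, with the number range or the lens and pigment epithelium levels as terms, with the length trend removed, and with limma on log2 CPM. It was 3 with limma-voom and 37 with DESeq2, which also called 49 lower. When each library was left out in turn, 0 to 13 genes were called higher and 0 to 26 lower, both highest without vehicle 2345; the causes were not tested. Partner genes with higher means numbered 60 of 71, and 35 with the number range as a term. After removal of the length trend, C1ql1 measured 0.271, Nlgn1 0.239 and Lphn3 0.212. The neighbours in level with ranges apart numbered 7 of 8 in vehicle libraries alone, where the smallest possible p is 0.0625, and 5 of 8 with exon lengths from GENCODE M21 or with none. The pairs differ between these lengths, since the order changes with the length used. With no length Nlgn2 was highest, C1ql1 came directly below Nrxn3, and Lphn1 exceeded Nrxn2 in 6 of 10 libraries. The first place of C1ql1 thus depends on dividing by its short length. Vehicle 2345 was the shallowest library. No paired analysis was possible because the groups share no replicate numbers.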
